A study of Homo sapiens with 4 samples.

Results

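The regions described here are stretches of the human genome at the ends of protein-coding genes where BAF45D gave a peak in every library of the study. Peaks of the 4 libraries that overlapped by at least 1 bp on chromosomes 1 to 22 and X were merged into 44534 regions. A region was kept when it held a peak of each library and overlapped the 1000 bp on either side of the start or the end of a protein-coding gene of RefSeq GRCh38. This left 905 regions, which are 2.03% of all merged regions, 9.03% of the 10025 regions at gene ends and 62.1% of the 1458 regions with a peak in all 4 libraries. They touch 1161 of 19974 protein-coding genes, a share of 5.81%, against which every gene list below is read. The presence of a peak in each list and its position at a gene end chose these regions, so neither is a finding about them, and peak strengths are given as a description.

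BAF45D was measured by CUT&Tag, in which an antibody guides a transposase to the DNA beside its target, with a rabbit anti-BAF45D antibody and 100000 cells per assay. The ESC libraries (ESC1 and ESC2) came from H9, an established human embryonic stem cell line kept undifferentiated on Matrigel in mTeSR1 medium. The NSC libraries (NSC1 and NSC2) came from spinal cord neural stem cells made from the same line by 10 days in N2B27 medium with LDN-193189, SB431542, CHIR-99021, FGF2, FGF8 and DAPT, followed by a maintenance medium with SB-431542, CHIR-99021 and Hh-Ag 1.5 and then a medium with FGF2 and EGF. Both cell types therefore represent 1 genome, the labels do not say whether libraries of a cell type came from separate cultures, and any p-value measures only the spread between libraries, which may be technical. A library made with an untargeted antibody was not used here, so the background of the assay is not known. The lists held 4204 and 12533 peaks for ESC1 and ESC2 and 29783 and 24669 for NSC1 and NSC2, called from 5377831 to 20734829 tags, with the smaller tag numbers in the NSC libraries.

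BAF45D, the product of DPF2, is a subunit of the BAF (SWI/SNF) complex, which uses ATP to slide or evict nucleosomes, and its tandem PHD fingers bind modified tails of histone H3. BAF complexes open chromatin at enhancers and promoters, and their subunit composition changes as pluripotent cells become neural progenitors. Promoters of genes that all cells use are often CpG-rich, lack a TATA box and carry short motifs for general factors: the CCAAT box is the site of NF-Y, the GC box that of SP and KLF factors, and the CRE that of CREB and ATF factors.

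The promoters of the strongest regions are given as sequence, which is not always the sequence under the peaks. At NDUFA11, SRGAP2C and HDGFL2 the strongest summit of every library lay outside the window printed here. At TPR only that of NSC2 lay inside, and at TRIM41 those of NSC1 and NSC2 but not of ESC1 and ESC2. Summits at the other windows are not given here. Each window runs from 250 bases before the gene start to 20 after it, is given on the strand of the gene, and comes from the RefSeq promoter table on hg38. The 8 were taken in order of the mean percentile of their region, leaving out windows that overlap another gene. Capitals mark matches, on either strand, to the GC box (GGGCGG), the CCAAT box (CCAAT), the ETS motif (CCGGAAG) and the E-box (CACGTG). The other motifs marked in the same search, NRF1 (GCGCATGC), YY1 (AAGATGGC), CRE (TGACGTCA), a CGCG palindrome (CTCGCGAG), the TATA box (TATAAA) and ZNF143 (ACTACAA), had no match in these 8 windows.
NDUFA11: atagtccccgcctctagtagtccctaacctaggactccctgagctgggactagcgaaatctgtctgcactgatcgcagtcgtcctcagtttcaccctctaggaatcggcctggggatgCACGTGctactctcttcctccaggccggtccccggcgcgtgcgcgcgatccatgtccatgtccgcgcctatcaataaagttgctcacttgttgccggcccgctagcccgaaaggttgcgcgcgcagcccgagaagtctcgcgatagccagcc
SRGAP2C: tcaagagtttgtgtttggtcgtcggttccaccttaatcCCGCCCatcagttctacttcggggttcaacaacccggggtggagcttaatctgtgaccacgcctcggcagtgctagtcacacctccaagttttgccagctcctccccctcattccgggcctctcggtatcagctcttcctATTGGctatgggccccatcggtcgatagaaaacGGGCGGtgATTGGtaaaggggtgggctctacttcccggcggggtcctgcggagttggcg
HDGFL2: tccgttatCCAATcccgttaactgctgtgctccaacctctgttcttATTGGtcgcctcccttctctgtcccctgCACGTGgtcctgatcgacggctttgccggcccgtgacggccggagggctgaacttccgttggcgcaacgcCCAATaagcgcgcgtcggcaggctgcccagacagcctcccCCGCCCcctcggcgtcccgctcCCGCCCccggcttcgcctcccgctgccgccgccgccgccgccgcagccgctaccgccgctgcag
TPR: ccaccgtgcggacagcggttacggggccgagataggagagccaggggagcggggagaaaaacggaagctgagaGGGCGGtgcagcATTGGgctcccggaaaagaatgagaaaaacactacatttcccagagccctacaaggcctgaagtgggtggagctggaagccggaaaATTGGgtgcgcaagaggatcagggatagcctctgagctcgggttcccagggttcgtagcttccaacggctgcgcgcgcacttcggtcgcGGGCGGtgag
CDK11A: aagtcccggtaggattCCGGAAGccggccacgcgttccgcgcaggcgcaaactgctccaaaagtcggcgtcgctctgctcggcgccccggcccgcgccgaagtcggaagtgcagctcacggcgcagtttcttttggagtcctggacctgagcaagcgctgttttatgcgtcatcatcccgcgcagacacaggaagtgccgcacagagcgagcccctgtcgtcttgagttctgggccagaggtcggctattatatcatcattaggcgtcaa
TRIM41: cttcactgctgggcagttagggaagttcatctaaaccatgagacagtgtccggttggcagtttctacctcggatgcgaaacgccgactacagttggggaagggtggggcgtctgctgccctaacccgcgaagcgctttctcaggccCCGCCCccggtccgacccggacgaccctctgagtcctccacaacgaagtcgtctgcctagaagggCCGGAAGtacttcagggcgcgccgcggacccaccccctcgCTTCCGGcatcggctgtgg
PJA2: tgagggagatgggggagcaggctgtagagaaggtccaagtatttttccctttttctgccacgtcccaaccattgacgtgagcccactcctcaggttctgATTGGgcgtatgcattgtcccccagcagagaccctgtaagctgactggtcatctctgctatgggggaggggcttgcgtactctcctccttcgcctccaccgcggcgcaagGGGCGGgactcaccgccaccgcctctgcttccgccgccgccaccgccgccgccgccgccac
SLC2A8: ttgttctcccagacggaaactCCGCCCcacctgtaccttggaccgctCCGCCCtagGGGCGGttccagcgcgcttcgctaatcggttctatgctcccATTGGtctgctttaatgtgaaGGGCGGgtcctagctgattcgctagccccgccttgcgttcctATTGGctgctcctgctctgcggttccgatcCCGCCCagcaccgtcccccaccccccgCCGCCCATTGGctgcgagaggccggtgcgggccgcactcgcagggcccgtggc

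The NDUFA11 window lies at chr19:5903771-5904040 on the minus strand, and NDUFA11 encodes an accessory subunit of respiratory complex I. HDGFL2, a chromatin reader of the HDGF family, lies at chr19:4472047-4472316 on the plus strand. TPR, a protein of the nuclear pore basket, lies at chr1:186375234-186375503 on the minus strand. TRIM41, a ubiquitin ligase, lies at chr5:181223031-181223300 on the plus strand, PJA2, another ubiquitin ligase, at chr5:109409955-109410224 on the minus strand, and SLC2A8, a glucose transporter, at chr9:127396919-127397188 on the plus strand. SRGAP2C at chr1:121184725-121184994 on the plus strand and CDK11A at chr1:1724338-1724607 on the minus strand share a stretch of 50 bases or more with another promoter of the genome, so reads there cannot be placed with certainty. CCAAT boxes were found in 5 of these 8 windows, with 3 each in HDGFL2 and SLC2A8, 2 each in SRGAP2C and TPR and 1 in PJA2. The NDUFA11 window, at the strongest region of all, held neither a CCAAT box nor a GC box. The strongest summits of the 4 libraries in that region lay at positions 5904462 to 5904509, outside this window. The window therefore does not show the sequence under them.

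Across all 870 promoter windows (250 bases before to 50 after the start) that overlapped a shared gene-end region, 504 held a CCAAT box, a share of 57.9% (95% Wilson interval 54.6 to 61.2%, which covers counting error only). Of all 15812 promoters of the same length, which include these 870, 36.3% held one (35.6 to 37.1%). The share was 49.2% (46.8 to 51.5%) of 1778 promoters at gene-end regions with peaks in ESC2, NSC1 and NSC2 but not ESC1, 37.4% (35.4 to 39.4%) of 2269 promoters at regions of both NSC libraries alone, and 31.5% (30.5 to 32.5%) of 8959 promoters without a peak. The interval at the shared regions did not overlap that of any of the other classes. At least 2 CCAAT boxes were held by 33.0% of promoters at the shared regions and by 12.5% of all promoters. Divergent gene pairs can share part of a window, so promoters are not independent of each other, and a match is a run of letters, not a measured binding site.

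The CCAAT share was also higher at the shared regions within 1 band of GC content. Promoters at the shared regions had a median GC content of 61.7% (interquartile range 57.8 to 65.3%), close to the 62.7% of all promoters and lower than the 69.3% of promoters at regions of both NSC libraries alone. Within the band of 55 to 70% GC, 61.9% (58.2 to 65.4%) of 682 promoters at the shared regions held a CCAAT box, against 38.6% of 7432 promoters in all, 50.5% of 1223 at regions that lacked only ESC1 and 40.2% of 1056 at regions of both NSC libraries alone. The ratio of observed to expected CpG had a median of 0.834 at the shared regions, 0.763 over all promoters, 0.900 at the regions of both NSC libraries alone and 0.527 at promoters without a peak.

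Other motifs differed between these classes in their own ways. The short CRE (TGACGT) was in 19.1% (16.6 to 21.8%) of promoters at the shared regions, 12.7% at regions of both NSC libraries alone and 9.66% of all promoters. The CGCG palindrome, a motif known as the site of BANP, was in 5.63% (4.29 to 7.37%), 2.42% and 1.53%, and the YY1 motif in 8.16% (6.52 to 10.2%), 5.46% and 3.91%. At regions that lacked only ESC1, the short CRE was in 14.8% (13.2 to 16.5%). The CGCG palindrome was there in 3.66% (2.88 to 4.63%) and the YY1 motif in 7.99% (6.82 to 9.34%), intervals that overlapped those of the shared regions. Within the band of 55 to 70% GC, the YY1 share was 8.06% (6.25 to 10.4%) at the shared regions. It was 5.97% (4.69 to 7.56%) at regions of both NSC libraries alone, with overlapping intervals. The GC box was in 73.2% at the shared regions, above the 58.5% of all promoters but below the 80.6% (78.9 to 82.1%) at regions of both NSC libraries alone. Within the band of 55 to 70% GC the shared regions and those of both NSC libraries alone did not stand apart, at 74.6% (71.2 to 77.8%) and 73.8%. For the ETS motif the shares were 21.8% at the shared regions and 22.9% at regions of both NSC libraries alone, with overlapping intervals, and 14.2% over all promoters. The TATA box was in 3.91% (2.81 to 5.41%) at the shared regions, 9.64% of all promoters and 13.5% of those without a peak, and the AP-1 motif in 3.10%, 5.76% and 7.70%. At regions of both NSC libraries alone the TATA box was in 4.50% and the AP-1 motif in 2.73%. At regions that lacked only ESC1 they were in 4.22 and 3.88%. For both motifs the intervals of these classes overlapped those of the shared regions. Shares of the RFX (GTTGCC), TEAD (GGAATG), E2F (TTCCCGCC), NRF1, ZNF143 and E-box motifs stand in the plot of motif shares. The octamer of POU factors (ATGCAAAT) was in 2.07% (1.31 to 3.25%), with an interval that overlapped the 1.70% of all promoters. The letters of the short CRE are part of the CRE, so a full CRE counts under both.

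**Figure D1:**
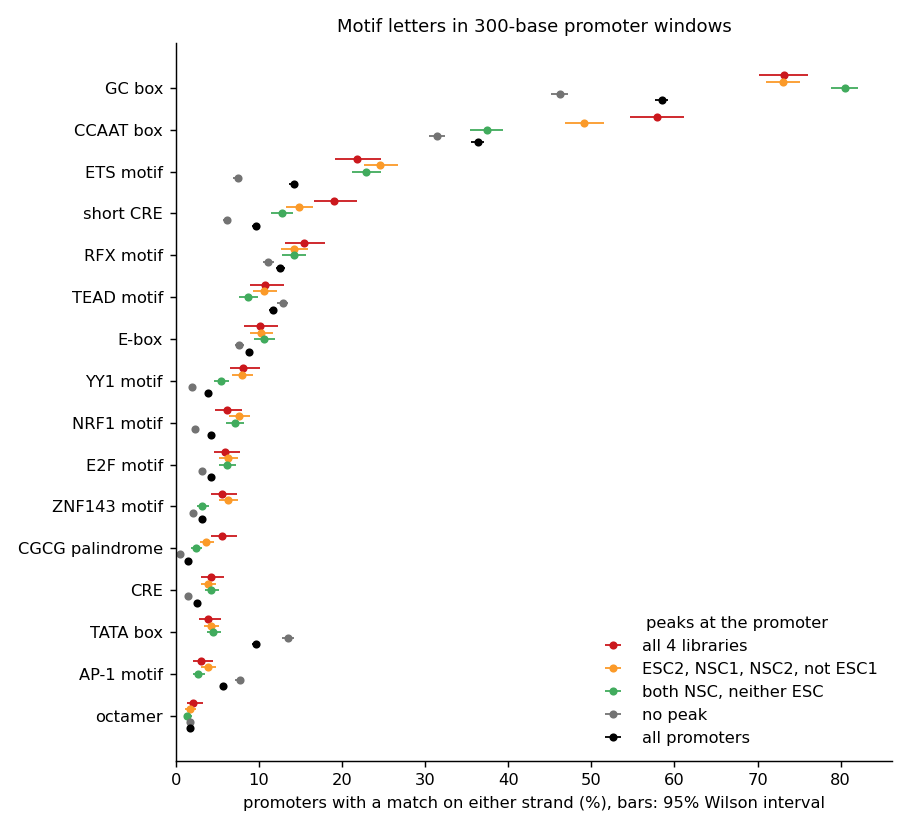
Share of promoters (x axis, percent, with 95% Wilson intervals as bars) that hold each of 16 motifs on either strand, for promoters grouped by the libraries with a peak there. The CCAAT box is in 57.9% at the shared regions, 49.2% at regions that lack only ESC1 and 37.4% at regions of both NSC libraries alone. The GC box is in 80.6% at regions of both NSC libraries alone and 73.2% at the shared regions over all GC contents. Within the band of 55 to 70% GC these shares are 73.8% and 74.6%.

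Positions of the matches differed by motif. In promoters at the shared regions the median position, in bases from the gene start, was -109.5 for the CCAAT box, -92 for the GC box and -75.5 for the ETS motif. YY1 matches had their median 9.5 bases after the start, against 10 over all promoters. Divided into 4 classes of equal size by the strength of the region, the promoters held a CCAAT box in 54.6, 61.3, 52.5 and 63.3% from the weakest to the strongest class, with no steady order. The CGCG palindrome was in 1.83, 5.99, 3.23 and 11.5% of the same classes, highest in the strongest. Median GC content stayed between 61.0 and 62.0% in all 4 classes.

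The regions lay at gene starts more than at 3′ ends. Of the 905, 781 (86.3%) touched the window of a start, 8 touched only 3′ ends, and 116 touched genes for which no strand was used here, alone or with a 3′ end. A gene end itself was covered by 793 regions (87.6%). The shares at starts and over a gene end were not set beside those of other gene-end regions. They therefore do not set the shared regions apart from these. There were 653 regions at 1 gene, 26.1% of the regions at 2 genes and 16 regions at 3 genes. Of the 965 genes with a shared region at the start, 33.5% (30.6 to 36.5%) had the start of another protein-coding gene on the opposite strand within 1000 bp. That share was 23.3% (21.72 to 24.96%) for 2609 genes with a region of both NSC libraries alone and 13.7% for all 15812 genes with a known strand. Counting long noncoding RNA genes as partners gave 48.2, 37.7 and 24.2%. The 2 genes of a divergent pair share a region and are counted once each.

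Within the 781 regions at a start, the strongest summit of each library lay mostly just upstream. The median distance to the nearest start was 172 and 179 bp in ESC1 and ESC2, and 148 and 150 bp in NSC1 and NSC2. Summits were upstream of the start in 75.8 to 78.0% of regions across the libraries, and within 250 bp of it in 63.8 to 70.3%. The NSC minus ESC difference was -26.5 bp, with 149 ± 1.41 bp in NSC and 175.5 ± 4.95 bp in ESC (SD, n = 2 each, two-sided exact permutation p = 0.33), and the groups did not overlap. A p of 0.33 is the smallest that 2 libraries against 2 can give. When every summit was used in place of the strongest, the difference turned to 4.5 bp in the other direction.

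**Figure D2:**
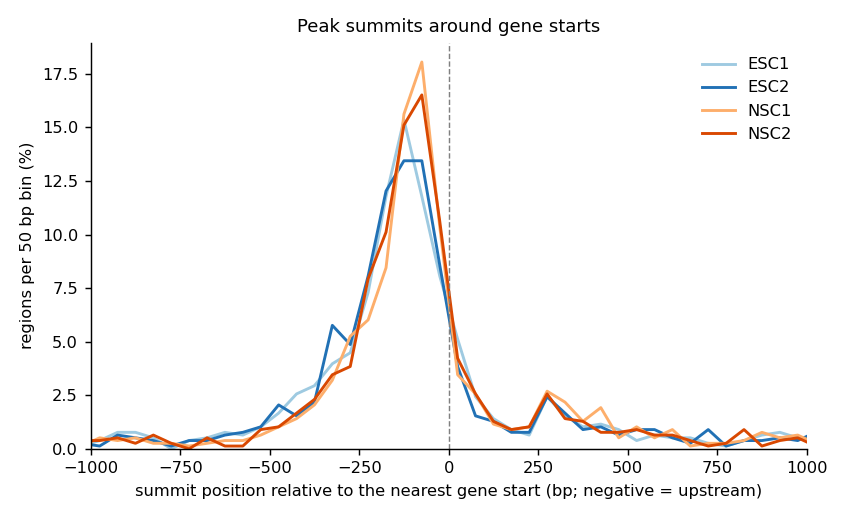
Position of the strongest summit of each library (x axis, bp from the nearest gene start, negative upstream) as the percent of the 781 regions at a start in each bin of 50 bp (y axis). In all 4 libraries the highest bins lie within 250 bp upstream of the start.

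Peaks in these regions were longer in NSC than in ESC, at 686 and 609 bp against 293 and 506 bp in the median (647.5 ± 54.4 and 399.5 ± 151 bp, SD, n = 2 each, two-sided exact permutation p = 0.33, the smallest possible). The groups did not overlap, and ESC1 stood apart with the shortest peaks. The merged regions had a median length of 803 bp (interquartile range 645 to 985), against 675 bp for the 553 regions of all 4 libraries away from gene ends and 496 bp for the 2972 gene-end regions of both NSC libraries alone. A merged region spans its peaks, with a median of 4 in the shared regions and 2 in those of both NSC libraries alone. The difference in length between these classes is thus partly set by the rule. A single peak from each library made up 778 of the 905 regions, and 877 had a stretch covered by all 4 libraries at once. The strongest summits of NSC1 and NSC2 lay 29 bp apart in the median, those of ESC1 and ESC2 38 bp, and pairs across cell types 42 to 52 bp.

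The short list of ESC1 set which regions qualified. Another 1919 gene-end regions had a peak in ESC2, NSC1 and NSC2 and lacked only ESC1, while 10, 14 and 30 lacked only ESC2, NSC1 or NSC2. Without ESC1 as a requirement there would be 2824 regions at 3504 genes. The lowest of the 4 deposited −log10 q values, which share a threshold but not a depth, was that of ESC1 in 809 of the 905 regions. The regions that lacked only ESC1 ranked lower in the other lists, at a median percentile of 66.8 in ESC2, 81.1 in NSC1 and 75.7 in NSC2. At the edge of the threshold, SMARCC2 had the weakest peak of any library, a deposited −log10 q of 1.32 in ESC1, followed by GLI1 with 1.36 and USP1 with 1.38, all in ESC1.

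Strength was read as the percentile of a peak's −log10 q within its own list, since each list was called alone. The 905 regions had a median percentile of 66.5 and 91.6 in ESC1 and ESC2, and of 93.9 and 92.2 in NSC1 and NSC2, so they stood high in every list but less so in ESC1. They took 22.1% of the peaks of ESC1, 7.57% of ESC2, 3.18% of NSC1 and 3.93% of NSC2. With lists of equal length, the NSC minus ESC difference in this share was -0.274 percentage points in place of -11.3. All 4 peaks stood above percentile 75 of their lists at 292 regions and above percentile 90 at 63. The 100 strongest peaks of a list were another matter: none of ESC1, 6 of ESC2, 37 of NSC1 and 25 of NSC2 lay in these regions, while 94, 90, 42 and 58 lay in regions of all 4 libraries away from gene ends. Among the 1000 strongest, 309, 429, 317 and 305 lay in the shared gene-end regions. Spearman's correlation of the percentile over the 905 regions was 0.82 between NSC1 and NSC2, 0.62 between ESC1 and ESC2 and 0.44 to 0.57 across cell types, a description over regions chosen from all 4 lists.

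**Figure D3:**
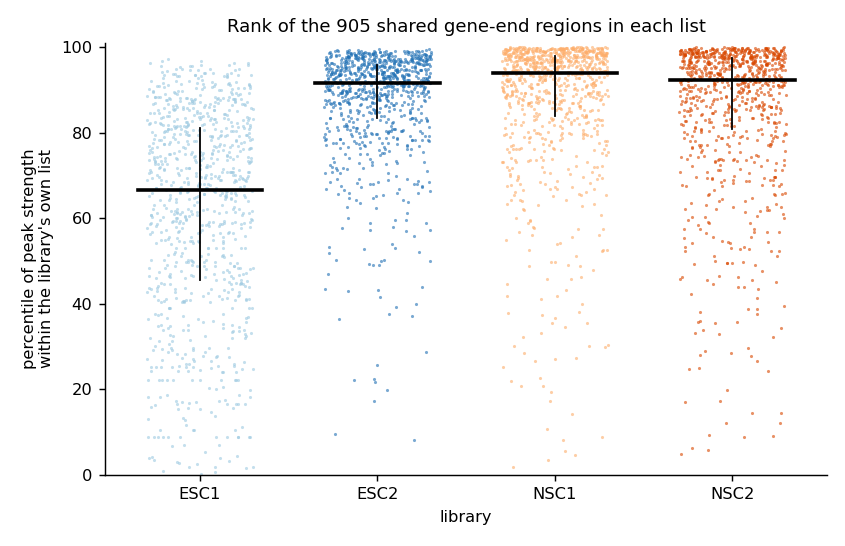
Percentile of peak strength within each library's own list (y axis, 100 is the strongest) for the 905 shared gene-end regions in each library (x axis). Points are regions, thick bars medians (66.5 in ESC1, 91.6 in ESC2, 93.9 in NSC1, 92.2 in NSC2) and thin bars the interquartile range.

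The strongest region of all, by the mean percentile over the lists, lay between NDUFA11 and VMAC at chr19:5903699-5904967, where −log10 q was 36.8 and 76.8 in ESC1 and ESC2, and 76.7 and 72.6 in NSC1 and NSC2. Values at other regions are given in this order of the libraries. An end of RBM39, a splicing factor, followed with 29.7, 80.1, 121 and 127 at chr20:35742091-35742769. Both of these stood above percentile 90 of every list. The region of FAM72B and SRGAP2C had 37.5, 51.5, 52.6 and 54.3, and that of SRGAP2, a GTPase-activating protein of neuronal migration, 21.2, 56.8, 68.4 and 57.5. SRGAP2C arose as a duplicate of SRGAP2, so their reads may be split between them. Others of the strongest 12 were at AGBL5, PGBD2, HDGFL2, CCDC59 with METTL25, LARP7 with ZGRF1, PHF12, and TPR with ODR4. LARP7 binds the 7SK RNA, and its region had 31.2, 42.3, 53.4 and 30.8.

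A tRNA gene lay in 26 of the 905 regions, a share of 2.87% (1.97 to 4.18%). The share was 0.135% of the gene-end regions of both NSC libraries alone, 0.459% of all gene-end regions, and 8.50% (6.45 to 11.1%) of the regions of all 4 libraries away from gene ends. These tRNA regions, singled out after their values were seen, held 39 of 429 tRNA genes. They stood at a median percentile of 88.7 and 97.1 in ESC1 and ESC2 and of 97.3 and 94.8 in NSC1 and NSC2, against 66.2, 91.5, 93.8 and 92.2 in the other 879. At AGBL5, whose region held genes of an alanine and a tyrosine tRNA, −log10 q was 32.6, 60.6, 52.8 and 45.0. The region near the 3′ end of BORCS6 held 4 tRNA genes and had the highest −log10 q of all 905 in ESC1 and ESC2, with 42.4 and 87.7, and 39.7 and 21.6 in NSC1 and NSC2. The longest region, 2362 bp at TRIM41, held 2 tRNA genes and had 28.0, 47.7, 45.1 and 29.7. Another tRNA region lay at the start of POLR3E, a subunit of the polymerase that transcribes tRNA genes, with 6.80, 36.2, 17.3 and 24.1.

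Small nuclear RNA genes lay in 4 regions, a share of 0.442% (0.172 to 1.13%). The share was 0.0698% of all gene-end regions and 1.81% (0.985 to 3.30%) of the regions of all 4 libraries away from gene ends. RN7SK, the 7SK RNA that holds the elongation factor P-TEFb inactive, lay in the region of GSTA4, with −log10 q of 15.4 and 38.9 in ESC1 and ESC2 and of 49.0 and 43.1 in NSC1 and NSC2. The other 3 genes encode spliceosomal RNAs: RNU12 in the region of POLDIP3 (12.6, 16.6, 17.4 and 16.4), RNU2-2 in that of WDR74 (2.14, 7.08, 14.8 and 17.2) and RNU11 in that of TAF12 (3.32, 8.22, 7.64 and 8.35). The 7SK region was the strongest of the 4 in every list. Of the 8 regions that touched only 3′ ends, those of BORCS6 and HES7 held tRNA genes and that of TMEM107 held SNORD118, a small nucleolar RNA. SDR42E2, CARD8, CDK5R2 and 2 genes with LOC symbols had the others. At HES7 the values were 20.5, 44.4, 30.9 and 17.3. A peak there may belong to the small RNA gene or to the protein-coding gene, which these lists do not tell apart.

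Genes of general cell functions took most of the higher shares among the 29 lists. The following counts are genes with a shared region at an end, beside the 5.81% of all protein-coding genes, without a test. Of aminoacyl-tRNA synthetases, which charge tRNAs, 7 of 35 had one (20.0%, 10.0 to 35.9%). Of genes of RNA processing and export 12 of 64 had one (18.8%, 11.1 to 30.0%), of chaperones 12 of 67 (17.9%), of splicing factors 15 of 97 (15.5%), of mitochondrial import 4 of 26 (15.4%), of cytosolic ribosomal proteins 12 of 80 (15.0%), of proteasome subunits 7 of 48 (14.6%) and of DNA repair 7 of 52 (13.5%). Respiratory chain genes gave 10 of 81 (12.3%), vesicle coats and sorting 13 of 118 (11.02%), translation initiation factors 6 of 55 (10.9%) and mitochondrial ribosomal proteins 8 of 77 (10.4%). The 6 genes of the initiation list include EIF2AK3, which encodes a protein kinase and no initiation factor. Closer to the background stood replication-dependent histones with 6 of 69 (8.70%, in 3 regions), histone modifying enzymes with 5 of 64 (7.81%), DNA replication and cell cycle with 6 of 77 (7.79%), RNA polymerase II and its general factors with 5 of 67 (7.46%), autophagy with 2 of 27 (7.41%) and ubiquitin-conjugating enzymes with 2 of 38 (5.26%). The 2 genes of the last list were UBE2T, a conjugating enzyme, and RPS27A, which encodes ubiquitin fused to a ribosomal protein and is no such enzyme. With only peaks of −log10 q of at least 5, the proteasome, polymerase, replication and histone lists stood below the share of all genes, as did the mitochondrial ribosomal and histone lists with lists of equal length.

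**Figure D4:**
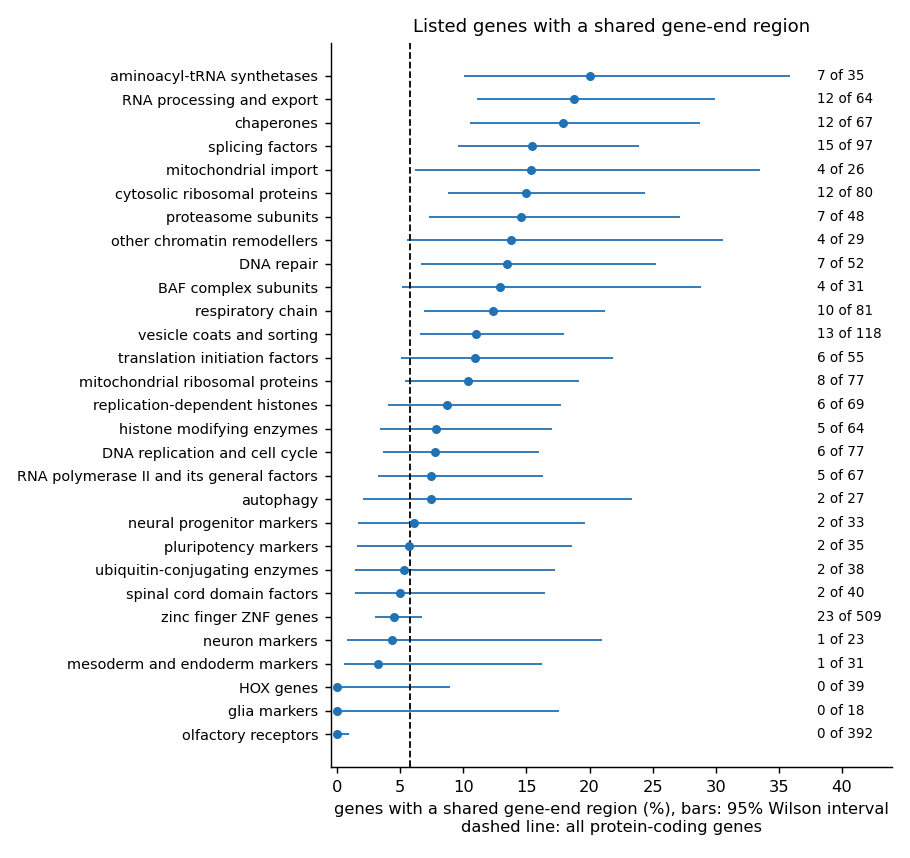
Percent of the genes of each of 29 lists with a shared gene-end region (points, with 95% Wilson intervals as bars, counts at the right), with a dashed line at the 5.81% of all protein-coding genes. The aminoacyl-tRNA synthetases (20.0%) and RNA processing and export (18.8%) lie farthest to the right. The pluripotency (5.71%), neural progenitor (6.06%) and ubiquitin-conjugating (5.26%) lists lie close to the line. Without ESC1 as a requirement, which is not plotted, they stand at 5.71, 15.2 and 21.1%, and all genes at 17.5%.

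Translation and RNA genes supplied several strong regions. EIF5A, a factor of translation elongation and termination kept in the initiation list by its symbol, had −log10 q of 21.6, 31.6, 27.5 and 33.0 in ESC1, ESC2, NSC1 and NSC2. RPS19 had 12.3, 35.4, 61.4 and 46.2, RPS9 had 9.67, 13.6, 26.1 and 24.8 and RPL26 had 5.80, 43.7, 24.8 and 30.3. Among splicing factors, the region of SF3B6, a protein of the U2 particle, had 29.7, 51.9, 23.5 and 16.9. HNRNPK and HNRNPD, RNA-binding proteins of the hnRNP family, had 8.43, 28.6, 46.0 and 44.1, and 8.32, 24.7, 57.6 and 39.2. INTS9 and INTS13 of the Integrator complex, which cleaves nascent small nuclear RNA, had 12.04, 51.03, 36.3 and 40.8, and 11.04, 36.6, 65.6 and 56.0. YARS1, the tyrosine-tRNA ligase, had 8.77, 13.3, 19.9 and 31.0. The region of SF3B6 also touched FAM228B and TP53I3. Other regions were shared as well: HNRNPK with RMI1, INTS9 with HMBOX1, INTS13 with FGFR1OP2 and YARS1 with S100PBP.

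Genes for protein folding, mitochondria and DNA repair gave values in the same range. The chaperone gene DNAJB4, whose region is shared with FUBP1, had 15.1, 56.4, 64.0 and 72.2, and CCT8 of the TRiC chaperonin 10.7, 25.03, 49.96 and 24.4. TOMM40, the channel for proteins entering mitochondria, had 17.4, 31.1, 74.9 and 48.1. HSPD1 and HSPE1, which encode the mitochondrial chaperonin and its partner, are counted in the chaperone list through 1 common region. PARP2, a poly-ADP-ribose polymerase, had 13.3, 47.9, 63.5 and 45.2. CDK2, a cyclin-dependent kinase next to RAB5B, had 19.8, 38.6, 37.8 and 39.7.

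Of 31 BAF complex genes, 4 had a shared region (12.9%, 5.13 to 28.9%): ARID2, ACTL6A, SS18 and SMARCC2. ARID2, which defines the PBAF form of the complex, had −log10 q of 6.85, 15.5, 20.2 and 18.1 in ESC1, ESC2, NSC1 and NSC2. The actin-like subunit ACTL6A, which belongs to progenitor forms of the complex, had 8.19, 17.1, 11.8 and 13.8. SS18 had 4.83, 14.7, 11.5 and 8.02, and the core subunit SMARCC2 1.32, 8.31, 10.2 and 10.3 in a region that also held a serine tRNA gene. With the lists reduced to equal length, 3.23% of BAF genes remained with a region against 3.68% of all genes. Of 29 genes of other chromatin remodellers, SMARCA5, CHD8, BAZ1B and INO80 had one (13.8%, 5.50 to 30.6%), the highest at SMARCA5, the ISWI ATPase, with 16.7, 42.2, 47.6 and 32.9.

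With a peak of all 4 libraries required, marker lists of the 2 cell types stood near the 5.81% of all protein-coding genes. Of 35 pluripotency genes SOX2 and LIN28A had a region (5.71%), of 33 neural progenitor genes SOX4 and SOX2 (6.06%), and of 40 spinal cord domain factors IRX3 and IRX5 (5.00%). At SOX2, a factor of both pluripotent and neural progenitor cells, −log10 q was 4.18, 18.0, 16.3 and 7.66. LIN28A, an RNA-binding protein of pluripotent cells, had 7.96, 16.4, 11.4 and 5.19, and SOX4 15.8, 17.1, 13.9 and 14.7. IRX5, 959 bp from the gene end, had 8.83, 25.7, 30.5 and 41.3 and IRX3 3.70, 16.6, 13.3 and 11.3, both homeobox genes of the neural tube. Of 31 mesoderm and endoderm markers FOXA3 had a region (7.53, 12.6, 14.9 and 12.7), in a region that also touched SYMPK. None of 39 HOX genes, 18 glia markers or 392 olfactory receptors had one, with upper interval bounds of 8.97, 17.6 and 0.970%. A peak at a marker in both cell types says nothing of its expression, which was not measured.

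Zinc finger genes with ZNF symbols gave 23 of 509 (4.52%, 3.03 to 6.69%), below the share of all genes. That order depended on ESC1: without it, 21.6% of ZNF genes and 17.5% of all genes had a region. On chromosome 19, where many of them lie, 15 of 246 ZNF genes (6.10%) and 111 of 1205 other genes (9.21%) had a region. Chromosome 19 as a whole had 8.68% (7.34 to 10.2%) of its 1451 genes touched and 98 of the 905 regions. Chromosome 14 had 9.42% (7.34 to 12.01%) of 605 genes, and the X chromosome 2.83% (1.91 to 4.18%) of 848, the highest and the lowest shares among the 23 chromosomes. The ZNF gene with the strongest region was ZNF140, with 11.03, 33.9, 28.4 and 14.8.

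The rank of a region in the ESC lists and in the NSC lists could differ widely, though ranks from lists of different lengths show no change in binding. Both NSC percentiles were above both ESC percentiles at 424 regions, and both ESC percentiles above both NSC percentiles at 38 (4.199%). Over all 1458 regions with peaks in all 4 libraries these shares were 38.4% and 15.8%, and for the shared gene-end regions they were 46.9% and 4.199%. With the lists cut to equal length, the median percentile of the shared regions differed by 0.583 between NSC and ESC, in place of 14.01. The regions at the extremes are given as a description.

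The largest differences of rank towards ESC were at SPAG4, CD55, GAGE13, KISS1 and CCDC200. At SPAG4, a SUN-domain gene of the testis, −log10 q was 7.69 in ESC1 and 23.4 in ESC2 and 2.30 and 1.93 in NSC1 and NSC2. CD55, which encodes the complement decay-accelerating factor, had 6.93 and 24.1 against 2.41 and 2.22, and KISS1, the kisspeptin gene, 5.52 and 8.46 against 3.57 and 2.86. At SPAG4, CD55, GAGE13, KISS1 and CCDC200 alike, both ESC percentiles were above both NSC percentiles. GAGE13 belongs to a family of near-identical X-linked genes, so its 13.3, 5.67, 4.14 and 1.93 cannot be placed with certainty. CCDC200 had 11.01 and 14.8 against 4.62 and 3.90.

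Towards NSC the largest differences were at PTPN1, COL11A1, TMEM218, SUGT1 and GCSH. PTPN1, a protein tyrosine phosphatase, had −log10 q of 2.64 and 2.74 in ESC1 and ESC2 and 20.9 and 25.3 in NSC1 and NSC2. SUGT1, a partner of the chaperone HSP90, had 1.94 and 5.00 against 37.8 and 34.1. COL11A1, a fibrillar collagen gene, had 2.37 in both ESC libraries against 10.3 and 16.8, and TMEM218, of the ciliary transition zone, 2.48 and 2.52 against 18.4 and 11.1. GCSH, of the glycine cleavage system, had 1.76 and 6.34 against 34.5 and 17.9. At all 5 both NSC percentiles were above both ESC percentiles.

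**Figure D5:**
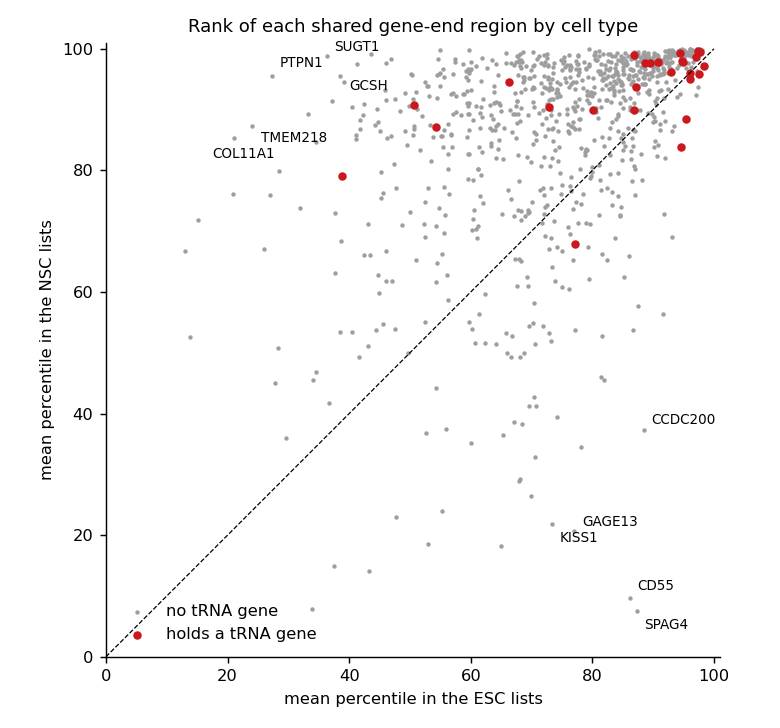
Mean percentile of each of the 905 shared gene-end regions in the ESC lists (x axis) and in the NSC lists (y axis), with the 26 regions that hold a tRNA gene in red and the 10 regions of the largest differences named. Most regions lie above the dashed line of equal rank, and SPAG4 and CD55 lie farthest below it.

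The regions at the edge of the window show how the choice of 1000 bp worked. Just inside it were ACSS2 at 991 bp from the nearest gene end, with −log10 q of 11.7, 39.05, 11.5 and 16.1, TEAD2 at 960 bp with 24.1, 36.7, 38.03 and 34.7, and IRX5 at 959 bp. Just outside were the regions nearest to GOLGA6B at 1020 bp with 7.25, 13.6, 4.14 and 2.98, KAT6B at 1041 bp with 43.99, 73.7, 70.8 and 85.2, and SCAF11 at 1051 bp with 3.27, 17.7, 18.4 and 19.9. The mean percentile of the 3 regions just inside was 89.8 to 97.5, above the median of 83.2 over all 905. At KAT6B, which encodes a histone acetyltransferase, the value in each library was above that at TPR, of the strongest 12. The longest regions after that of TRIM41 were 2010 bp at GPR137, BAD and PLCB3 (6.45, 14.7, 21.2 and 23.3) and 1923 bp at ELF1 and WBP4 (2.15, 10.8, 16.8 and 15.9).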

How the data were processed

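The data are 4 peak lists, 1 per CUT&Tag library (2 of H9 embryonic stem cells and 2 of neural stem cells derived from them). The submitters' processing notes name BWA 0.7.12, Trimmomatic and FastQC, with hg38 as the build. Per the file headers, peaks were called for each library alone with MACS 2.1.0.20150420, without a control, at q of 0.05, with a shift of -100 bp and an extension of 200 bp. The authors deposited for each peak its pileup as a signal, −log10 p and −log10 q, the fold enrichment as a ratio to the local background of 10000 bp, and its length. These depend on the library's own depth (5377831 to 20734829 tags) and were ranked only within a list, where a place without a peak has no value; values of different lists stand side by side as a description, and the lowest of the 4 marks the edge of the common threshold.

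Entries with the same start and end were joined with the strongest summit kept, and peaks were merged as described in the report. Gene ends came from the RefSeq table of GRCh38.p14. Strand, start and promoter sequence came from the RefSeq promoter table, which had entries for 15812 of 19974 protein-coding genes; the other 4162 have a side of unknown type. Motifs were counted on both strands in windows of 250 bases before and 50 after the start. Groups were compared with exact permutation tests of 1 value per library, and intervals of shares are 95% Wilson intervals. Samples with the same number were checked for pairing over the regions (correlation of deviations -0.028), and the labels name no shared culture. Python 3.11.15, numpy 2.4.6, pandas 2.3.3, scipy 1.17.1 and matplotlib 3.10.9 were used, and the merging and motif steps were tested on simulated data.

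The regions and the gene lists were chosen with earlier results of these data known. Named regions are the 12 of highest mean percentile, 5 with the largest difference of rank each way, 3 on each side of the window, the 3 longest, the 3 with the weakest peak, up to 4 genes of each list, and all listed BAF and marker genes. Regions with small RNA genes or only 3′ ends were added after their values were seen. Alternatives covered the peak threshold, list length, overlap, window, summit, near-copy promoters, the replicate number and each library in turn. A few named regions of that rule are not reported here.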

Additional observations from a re-analysis of the deposited data

How the results depend on the processing

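The count of shared gene-end regions was 458 with only peaks of −log10 q of at least 5 and 559 with lists of equal length (4204 peaks each), with 599 and 736 genes, in place of 905 and 1161. Leaving out each library in turn gave 905 to 2824 regions and 1156 to 3504 genes. The upper values were those without ESC1, though each of these settings asked for 1 list fewer. Over the same settings the range was 61.7 to 63.0% for the promoter GC content and 0.833 to 0.852 for the CpG ratio. The distance of summits to the start, NSC minus ESC, turned from -26.5 to 4.5 bp with every summit, and the cause was not tested. No other direction changed among the 4 compared values, though none could reach p under 0.33. With the replicate number as a block (replicate block), the distance difference was -26.5 bp with an exact sign-flip p of 0.5, the smallest it can give, and the labels do not pair the libraries. Of 128 motif alternatives 5 moved outside the interval, among them the CCAAT box at 52.0% without ESC1, and of 261 gene-list alternatives 45 did. Of 29 lists, 11 changed their side of the share of all genes under at least 1 alternative.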
